A study of Drosophila melanogaster with 4 samples.

Results

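The vacuolar ATPase (V-ATPase) subunit genes of adult Drosophila melanogaster were examined in RNA recovered with the poly(A)-binding protein (PABP) of intestinal progenitor cells. They were taken as all rows of the gene count table whose symbol starts with Vha, which gave 32 of 17806 named genes. The series holds 4 libraries. The 2 PABP IP libraries carry RNA precipitated with PABP on FLAG beads from flies ground to powder and exposed to ultraviolet light, which links protein to RNA, and the labels assign them to intestinal progenitor cells. The 2 input libraries carry RNA taken from whole-fly extract ahead of the precipitation step, so every cell type of the fly contributes to them. Each sample pooled 200 adult flies, 100 of them male. The labels used here give no genotype, age, driver line or tag construct for either group, and no library of a mock precipitation is among them.

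The V-ATPase is a proton pump that acidifies lysosomes, endosomes and secretory vesicles and, in some epithelia, drives secretion across the apical membrane. Its cytosolic V1 sector (subunits A to H) burns ATP, and its membrane sector V0 (subunits a, c, c″, d and e) carries the protons through a rotating ring of proteolipids. In insects the pump energises fluid secretion by the Malpighian (renal) tubules and acid release by the copper cells of the midgut. Many fly subunits have 1 broadly expressed gene and further paralogues known chiefly from single tissues such as the testis. For each subunit the broadly expressed gene was set by textbook knowledge (both Vha68-1 and Vha68-2 for subunit A), which gave 9 broad copies, 6 subunits or accessory proteins with a single gene here, and 17 further paralogues. These classes describe the genes and were chosen with earlier results of these data known.

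Total gene counts ranged from 2464629 to 3346231 in the input and from 8987420 to 10761349 in the IP. All 8 fixed progenitor markers were higher in the IP (median log2 fold change 7.51), and 8 of 9 enterocyte markers were lower (median -2.59). Transcript level in progenitors relative to the whole animal, PABP binding and RNA that sticks to beads can each enter a fold change, and they cannot be told apart. In such bulk samples, fewer cells of a type and less RNA per cell cannot be told apart either. The labels do not say whether libraries of a group came from separate fly collections, so the p-values rest on a spread between samples that may be only technical.

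Of the 32 genes, 24 had enough counts to be tested. The filter asked, in at least 2 libraries, for the level that 10 counts stand for in a library of median size. Fewer counts thus sufficed in the shallower input, such as 5 and 7 for Vha16-5, than in the deeper IP. These members were split in direction, as all tested genes were. In the IP 11 genes were higher and 10 lower, and 3 did not pass the test (quasi-likelihood test of edgeR on counts, adjusted by Benjamini-Hochberg over all 9989 tested genes with 0.05 as the limit). These are 45.8% and 41.7% of the tested members, against 37.1% higher and 38.8% lower of all tested genes. For 12 members both IP libraries lay above both input libraries in CPM (counts scaled to the TMM-adjusted library size) and for the other 12 both lay below, where 42.3% and 46.3% of all tested genes did so. How many genes count as higher depended on the scaling of the libraries, because TMM scaling put the median log2 fold change of all genes at -0.10, upper-quartile factors at -0.71, library size alone at -0.95 and the authors' size factors at -0.59. With those 3 scalings, 4, 4 and 4 members were higher and 17, 18 and 13 lower. Of all tested genes, 25.8%, 22.1% and 27.5% were then higher and 57.3%, 63.5% and 53.9% lower. The 4 higher genes Vha16-1, Vha26, Vha44 and VhaM9.7-b were called in all 13 alternatives, and a further test that asks for a log2 fold change beyond 1 called 3 of them, without Vha44. All 10 lower genes stayed below 0 in every alternative that tested them. The 3 other scalings and a filter of at least 50 counts in 2 libraries lowered every member they tested. They could therefore not bring a lower gene above 0. RLE size factors and DESeq2 raised members slightly, such as Vha36-1 from -0.30 to -0.22 in both. Vha36-1, Vha13 and VhaM9.7-a lost their call in both. The authors' deposited table gives an adjusted p for 30 Vha genes and calls 4 higher (the same 4 genes) and 11 lower, against 21.3% and 38.5% of the 11294 genes with an adjusted p there.

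**Figure D1:**
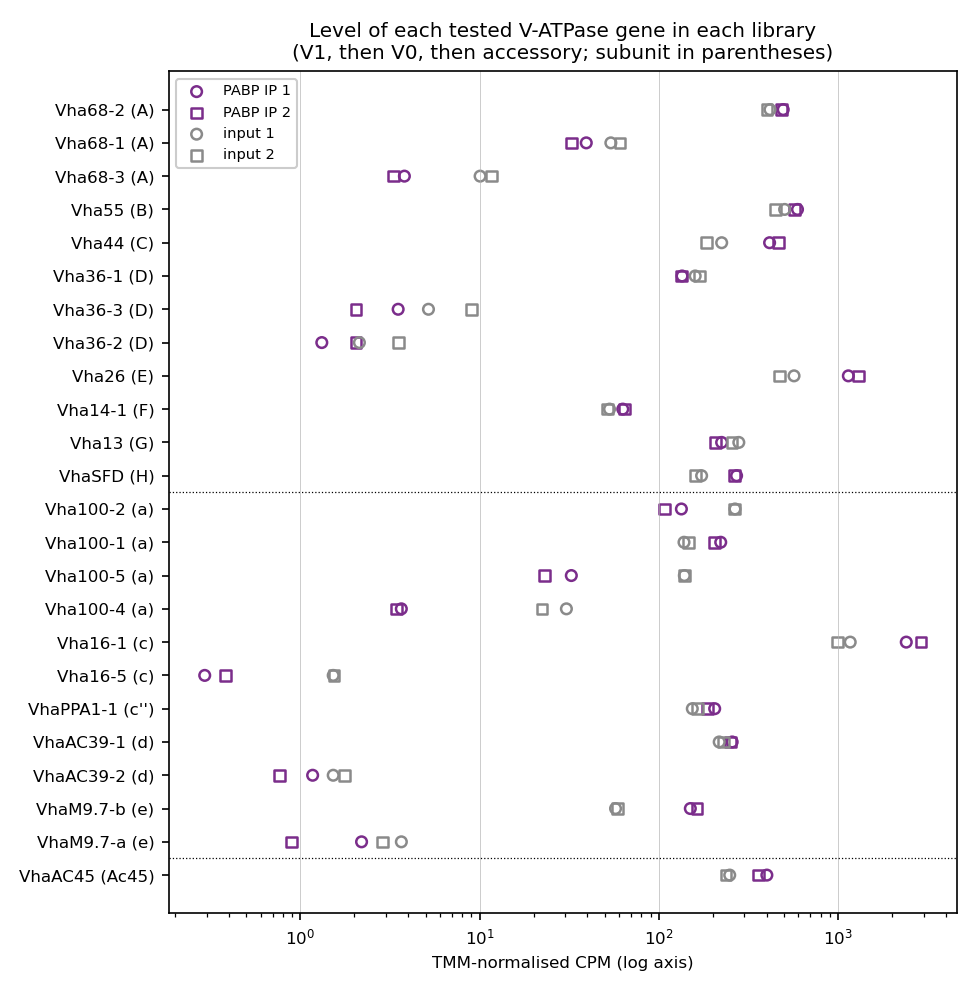
TMM-normalised CPM (log axis) of the 24 tested V-ATPase genes, with 1 point per library (purple, PABP IP; grey, input; circles, replicate 1; squares, replicate 2). Vha16-1 and Vha26 hold the highest levels in every library, and Vha16-5 lies below 2 CPM in all 4.

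In the V1 sector, subunits C and E showed the clearest rises. Vha26 encodes subunit E, part of the peripheral stalks that hold the catalytic head still. It had 1142 and 1299 CPM in the IP libraries and 568 and 473 CPM in the input libraries. Both IP values exceeded both input values by a wide margin, a 2.35-fold difference (log2 1.23 ± 0.13 SE, edgeR adjusted p = 2.01e-07, n = 2 each). Vha44 encodes subunit C, which joins the head to the membrane sector and leaves when the pump comes apart. Its levels were 415 and 467 CPM in the IP and 224 and 185 CPM in the input, so it rose 2.16-fold (log2 1.11 ± 0.12 SE, edgeR adjusted p = 1.99e-07). Vha44 overlaps Hmgs over 4.6% of its span.

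The catalytic head itself moved little. Vha55 encodes the only B subunit and had 594 and 570 CPM in the IP against 504 and 446 CPM in the input (log2 0.29 ± 0.11 SE, edgeR adjusted p = 0.0262). Vha68-2, the main A subunit gene, had 495 and 485 CPM against 417 and 401 CPM (log2 0.26 ± 0.11 SE, edgeR adjusted p = 0.0365). The central shaft subunit F, encoded by Vha14-1, showed 63.0 and 64.4 CPM against 53.1 and 51.9 CPM (log2 0.28 ± 0.12 SE, edgeR adjusted p = 0.0381). These 3 small rises turned negative with upper-quartile factors, library size alone and the authors' factors, to between -0.20 and -0.59, and none of the 3 was called with the replicate block. Vha68-2 and Vha14-1 also lost their call without any 1 of the 4 libraries, and Vha55 lost it without input 2 (0.20). Vha36-1, of the shaft subunit D, had 135 and 133 CPM in the IP and 160 and 169 CPM in the input (log2 -0.30 ± 0.10 SE, edgeR adjusted p = 0.0123). Vha13, of the stalk subunit G, had 224 and 208 CPM against 280 and 256 CPM (log2 -0.31 ± 0.10 SE, edgeR adjusted p = 0.0126). Neither lower call was kept with RLE size factors or in DESeq2. The call of Vha36-1 was also lost without input 2 (-0.26), and that of Vha13 without input 1 (-0.25) or PABP IP 2 (-0.26). VhaSFD, of the regulatory subunit H, was at 272 and 265 CPM in the IP and 173 and 160 CPM in the input (log2 0.69 ± 0.10 SE, edgeR adjusted p = 1.04e-05), and with library size alone its log2 fold change was -0.16. Since G and E form the same stalk as a pair, their genes can be set side by side: Vha26 lay above 78.2% of all tested genes in log2 fold change and Vha13 above 44.5%.

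In the membrane sector, the main proteolipid gene Vha16-1 and the gene of the small subunit e, VhaM9.7-b, rose most. Vha16-1 encodes the proteolipid c, present in several copies per ring, and had the highest CPM of the V-ATPase genes in every library, without correction for gene length. It stood at 2403 and 2910 CPM in the IP and at 1169 and 993 CPM in the input, a 2.46-fold rise (log2 1.30 ± 0.15 SE, edgeR adjusted p = 4.39e-07). VhaM9.7-b, of subunit e, had the largest positive fold change of the tested members, from 57.4 and 58.7 CPM in the input to 150 and 164 CPM in the IP (log2 1.43 ± 0.11 SE, edgeR adjusted p = 2.08e-09). The replicates of each group lay close together for this gene, and its fold change exceeded that of 81.4% of all tested genes. VhaPPA1-1, of the proteolipid c″, had 205 and 187 CPM against 154 and 165 CPM (log2 0.30 ± 0.10 SE, edgeR adjusted p = 0.0144), which became -0.32 with upper-quartile factors. Its call was lost without input 1 (0.24) or PABP IP 1 (0.25). VhaAC39-1, of subunit d at the foot of the shaft, had 257 and 251 CPM against 217 and 230 CPM and did not pass (log2 0.18 ± 0.10 SE, edgeR adjusted p = 0.109). With upper-quartile factors it was lower instead (-0.43). The accessory protein gene VhaAC45 had 401 and 360 CPM in the IP and 249 and 237 CPM in the input (log2 0.65 ± 0.11 SE, edgeR adjusted p = 3.65e-05), and -0.20 with library size alone.

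Subunit a, the large stator that holds the proton half-channels and directs the pump to its membrane, departed from this pattern. Its broadly expressed gene Vha100-2 had 134 and 108 CPM in the IP and 266 and 265 CPM in the input, so it fell (log2 -1.14 ± 0.11 SE, edgeR adjusted p = 6.81e-08). It was the lowest of the 15 broad or single genes in log2 fold change. Vha100-2 overlaps Vti1b over 24.6% of its span, and reads there may not have been assigned to either gene. Vha100-5 fell 5.03-fold, from 139 and 139 CPM in the input to 32.5 and 23.0 CPM in the IP (log2 -2.33 ± 0.14 SE, edgeR adjusted p = 7.79e-11). Vha100-4 fell 7.31-fold, from 30.5 and 22.3 CPM to 3.66 and 3.45 CPM (log2 -2.87 ± 0.25 SE, edgeR adjusted p = 1.33e-08), the lowest fold change of the family. Vha100-1, whose protein is known in the fly for its work at synaptic vesicles, went the other way, with 222 and 205 CPM in the IP and 138 and 146 CPM in the input (log2 0.58 ± 0.10 SE, edgeR adjusted p = 5.77e-05). This rise was not called with the authors' factors (0.09) and became -0.03 with upper-quartile factors and -0.27 with library size alone.

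**Figure D2:**
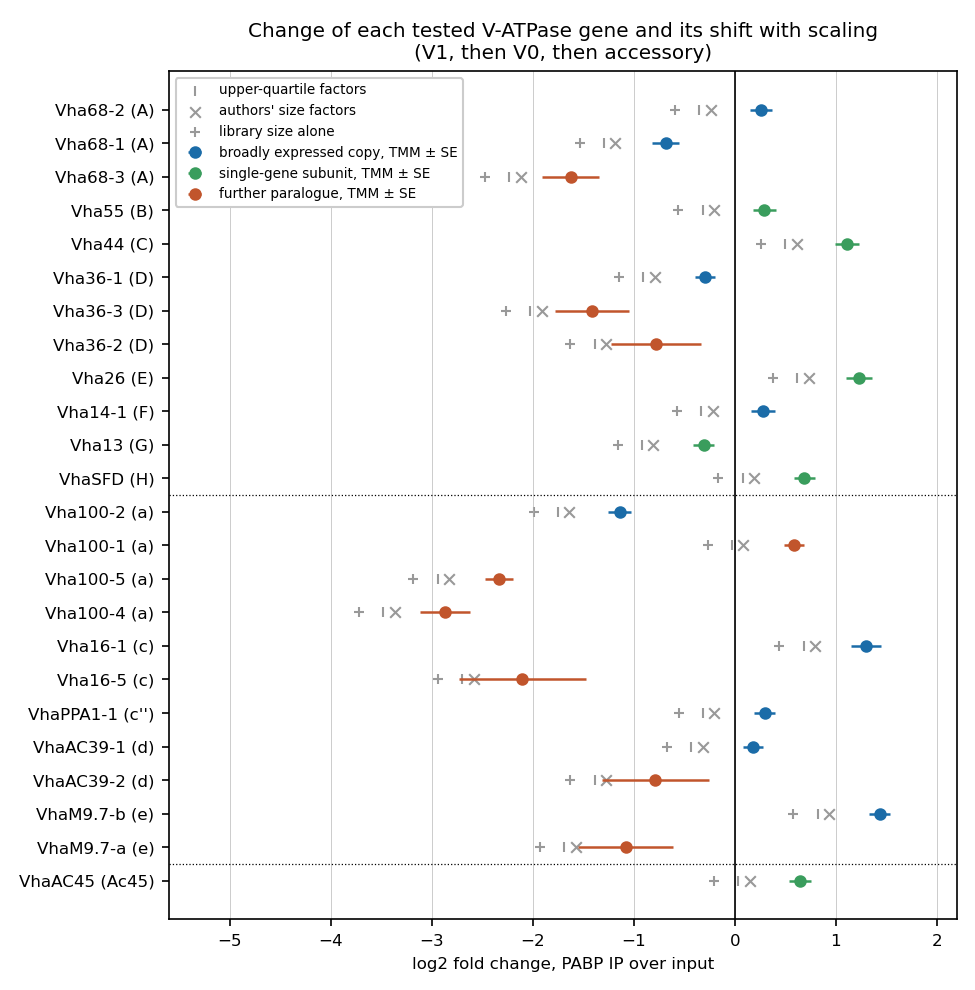
Log2 fold change of PABP IP over input for the 24 tested genes (coloured points with SE bars, TMM scaling) and the same value under 3 other scalings (grey marks). Other scalings shift every gene to the left by a like amount, so that Vha16-1, Vha26, Vha44 and VhaM9.7-b stay above 0 while Vha55, Vha68-2, Vha14-1, VhaPPA1-1 and VhaAC39-1 cross it under all 3.

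Comparisons between genes within a library do not depend on how libraries are scaled. Of all counts to the subunit a genes, Vha100-1 took 56.6% in PABP IP 1 (95% Wilson interval 54.7% to 58.5%) and 60.5% in PABP IP 2 (58.6% to 62.3%). Its share was 24.1% in input 1 (22.2% to 26.1%) and 25.5% in input 2 (23.9% to 27.2%). Such intervals cover counting error only. Vha100-2, the leading gene in the input with 46.4% and 46.4%, supplied 34.2% and 31.8% in the IP. Vha100-5 went from 24.2% and 24.2% in the input to 8.31% and 6.77% in the IP, and Vha100-4 from 5.32% and 3.90% to 0.935% and 1.02%. The order of Vha100-1 and Vha100-2 was thus opposite in the groups. The log2 ratio of their counts was 0.73 and 0.93 in the IP and -0.94 and -0.86 in the input. Their fold changes differed by 1.72 ± 0.15 SE on the log2 scale (95% interval 1.40 to 2.04). Per kilobase of gene span, the mean level of Vha100-1 was 31.4 CPM in the IP and 20.9 CPM in the input, and that of Vha100-2 was 13.6 and 30.0 CPM.

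Markers of the tissues these paralogues are known from were read in the same libraries. Of 9 tested neuron markers none was higher and 3 were lower (VGlut at -2.34, Gad1 at -1.26 and nSyb at -1.14). The 6 not called were Rdl at 0.41, Syt1 at 0.06, cac at 0.05, Syn at -0.18, brp at -0.21 and ChAT at -0.63. With each of the 3 other scalings 8 of the 9 were lower, and without PABP IP 1 there was 1 higher. The list's summed level was 198 to 253 CPM in the IP and 266 to 318 CPM in the input. VAChT was at 0 in all libraries and elav had too few counts to test. The rise of Vha100-1, which was lost with those 3 scalings, stood beside neuron markers that were mostly not called in the main fit. Vha100-4 stands on the copper cell list. The 4 other tested genes of that list rose, lab by 2.61 ± 0.39 SE, dve by 1.61, kcc by 1.48 and Ptx1 by 1.37 on the log2 scale, while CAH13 was at 0 throughout. Of 10 Malpighian tubule markers 9 were lower and 1 was not called, with a summed level of 171 to 230 CPM in the IP and 492 to 499 CPM in the input. The part of these tissues in the V-ATPase values was not tested.

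**Figure D3:**
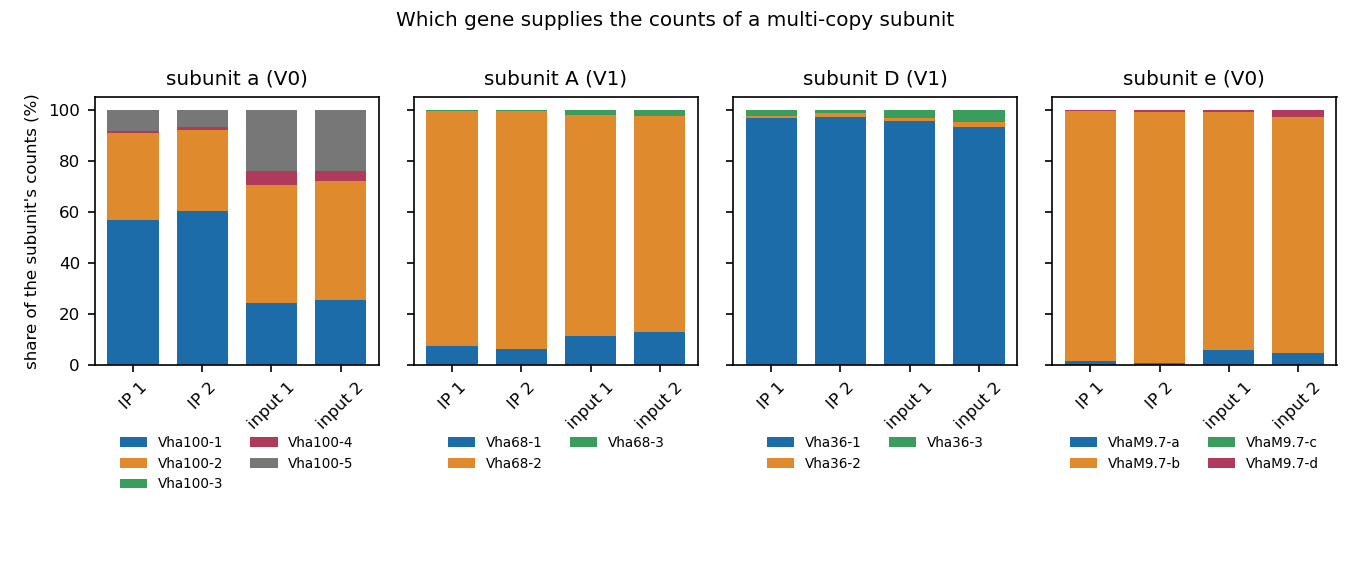
Share of each multi-copy subunit's counts (%) supplied by each of its genes, with 1 bar per library, for subunits a, A, D and e. In subunit a, Vha100-1 supplies 56.6% and 60.5% of the counts in the IP and 24.1% and 25.5% in the input, while in the other 3 subunits 1 gene supplies most counts in all 4 libraries.

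In subunit A the main gene Vha68-2 supplied 92.5% ± 0.806 (SD, n = 2) of the IP counts, compared with 85.7% ± 1.40 (SD, n = 2) of the input counts. The other broad copy, Vha68-1, had 39.4 and 32.6 CPM in the IP and 54.0 and 60.7 CPM in the input (log2 -0.68 ± 0.14 SE, edgeR adjusted p = 0.000226). Vha68-3, which lies next to Vha68-2 in the genome, had 3.81 and 3.32 CPM against 10.1 and 11.7 CPM (log2 -1.62 ± 0.28 SE, edgeR adjusted p = 6.12e-05). The 3 A genes were ordered alike in every pair, with Vha68-2 above Vha68-1 by 0.94 (95% interval 0.58 to 1.31) and Vha68-1 above Vha68-3 by 0.94 (0.28 to 1.60) in log2 fold change. In subunit D, Vha36-3 had 3.51 and 2.04 CPM in the IP and 5.19 and 9.05 CPM in the input (log2 -1.41 ± 0.37 SE, edgeR adjusted p = 0.00231), a call lost without input 2 (-0.93). Vha36-2 had 1.32 and 2.04 CPM against 2.14 and 3.53 CPM and did not pass (log2 -0.78 ± 0.44 SE, edgeR adjusted p = 0.121).

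The other further paralogues that could be tested were rare. VhaM9.7-a had 15 and 7 counts in the IP and 12 and 13 in the input (log2 -1.08 ± 0.47 SE, edgeR adjusted p = 0.0464). That call was lost without input 1 (-0.93), input 2 (-1.28) or PABP IP 2 (-0.55), and also with RLE factors (-1.01), no count filter (-1.02) or DESeq2 (-1.02). Vha16-5 had 2 and 3 counts in the IP and 5 and 7 in the input (log2 -2.10 ± 0.63 SE, edgeR adjusted p = 0.0064). It was not called in DESeq2 (-2.10) and did not pass the count filter when any library was left out. VhaAC39-2, with 8 and 6 counts in the IP and 5 and 8 in the input, did not pass (log2 -0.78 ± 0.53 SE, edgeR adjusted p = 0.185). Over all 15 pairs of paralogues of a subunit in which both genes were tested, 11 had a 95% interval of the difference that left out 0. Among those 11 were the pairs of Vha16-5, VhaM9.7-a and Vha36-3 with the broad gene of their subunit. These further genes did not pass the count filter on the IP libraries alone. The intervals that held 0 were those of Vha36-1 and Vha36-2 (-0.48 to 1.44), Vha36-2 and Vha36-3 (-0.58 to 1.86), Vha100-5 and Vha100-4 (-0.06 to 1.14) and VhaAC39-1 and VhaAC39-2 (-0.17 to 2.10). In each subunit with a broad and a further gene tested the broad gene had the higher log2 fold change, except in subunit a, where Vha100-1 stood above Vha100-2. Vha36-2 and VhaAC39-2 likewise did not pass the count filter on the IP libraries alone. Passing through the input can tilt such genes to lower values. The order in subunits c, d, D and e may thus come in part from the filter, which was not tested.

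The broad and single genes can be set against the further paralogues as classes. All 15 broad or single genes were tested, of which 10 were higher, 4 lower and 1 not called, with a median log2 fold change of 0.29. Only 9 of the 17 further paralogues were tested, of which 1 (Vha100-1) was higher, 6 lower and 2 not called, with a median of -1.41. The all-gene median was -0.10. Against that median the classes stood at 0.39 and -1.32. The 3 other scalings named above shift all genes by nearly the same amount. The offsets moved by less than 0.01 under them by construction, which is no test of the offsets. Under these scalings the class of 15 had 4 genes higher in each and 9, 9 and 5 lower. The further paralogues had 0 higher in each and 8, 9 and 8 lower. With a filter of at least 50 counts in 2 libraries, the offset of the same 15 genes was 0.0461 and that of the 3 further paralogues left was -2.58. With no count filter, 14 further paralogues had a median of -1.04, with 1 higher and 5 lower. Rare genes such as Vha16-5 (2 and 3 counts in the IP, 5 and 7 in the input) passed the main filter through the shallower input libraries. That can tilt this class to lower values, and the size of such a tilt was not tested. Without input 2, 3 of 8 tested further paralogues were lower, and without input 1, 4 of 9. Summed over genes, further paralogues made up 272 and 243 CPM in the IP and 336 and 341 CPM in the input. Without Vha100-1 these sums were 50.5 and 37.9 CPM against 198 and 195 CPM. Relative to the sum of the broad and single genes, all further paralogues amounted to 0.0393 and 0.0324 in the IP and 0.0740 and 0.0821 in the input. Testis markers moved alongside: 8 of 12 tested were lower and mia was higher, with a summed level of 155 to 169 CPM in the IP and 361 to 391 CPM in the input, and S-Lap4, fzo and sa were at 0. Their part in the values of the further paralogues was not tested.

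The remaining 8 genes, all further paralogues, did not pass the count filter. Vha14-2 had 3 and 2 counts in the IP and 3 and 3 in the input, VhaPPA1-2 had 6 and 2 against 5 and 2, and VhaM9.7-d had 4 and 11 against 2 and 8. Ratios of IP to input were taken from counts pooled by group over TMM library sizes. For these genes they were 0.444 (exact 95% counting interval 0.107 to 1.75), 0.609 (0.193 to 1.97) and 0.799 (0.336 to 1.99). For Vha16-3, with 0 and 1 counts in the IP and 4 and 2 in the input, the ratio of IP to input was 0.0888 with an exact 95% counting interval of 0.00193 to 0.732. Vha16-4 had 1 count in each group (ratio 0.533, interval 0.00678 to 41.8). Vha100-3, Vha16-2 and VhaM9.7-c had 0 counts in all 4 libraries. Vha100-3 lies wholly inside sano and VhaM9.7-c inside CG18675 and Teh2, and Vha16-2 overlaps an antisense RNA gene over 84.5% of its span, so these zeros may reflect how overlapping genes were counted and no absence can be read from them.

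Set by sector, 12 of 13 V1 genes and 11 of 18 V0 genes were tested. In V1, 6 were higher, 5 lower and 1 not called (median log2 fold change -0.02). In V0, 4 were higher, 5 lower and 2 not called (median -0.78). The sectors differ in makeup, with 6 further paralogues among the 11 tested V0 genes and 3 among the 12 tested V1 genes. Among broad and single genes alone the medians were 0.28 for 9 V1 genes and 0.30 for 5 V0 genes. Without PABP IP 1 or PABP IP 2, where fewer rare V0 genes passed the filter, the V0 median was 0.19 in both cases, and without input 2 it was -0.23. As a sum of CPM, V0 genes came to 1.01 and 1.09 times V1 genes in the IP libraries and to 0.890 and 0.910 times in the inputs. This ratio rested on Vha16-1. Without it, V0 amounted to 0.298 and 0.267 of V1 in the IP and 0.413 and 0.464 in the input, the opposite order of the groups. With Vha26, the V1 gene of highest CPM, also left out of V1, the ratios were 0.449 and 0.423 in the IP and 0.538 and 0.589 in the input. All Vha genes together summed to 7200 and 7746 CPM after TMM scaling in the IP and to 4882 and 4491 CPM in the input. As a share of each library's raw counts the order was the opposite, with 0.547% and 0.564% in the IP and 0.649% and 0.608% in the input, so the direction of the summed level depends on the scaling.

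Compared per kilobase of gene span, which includes introns and so understates genes with long ones, the levels of the broad and single genes also differed between subunits. In the input the highest mean levels were those of Vha13 (196 CPM per kilobase), Vha36-1 (155), Vha26 (145) and Vha16-1 (138). In the IP, Vha26 (340) and Vha16-1 (338) led, followed by VhaAC45 (172) and Vha13 (158). The long gene Vha44 had 37.3 CPM per kilobase in the IP and 17.3 in the input. Across the 15 broad and single genes, log2 fold change and gene span were weakly related (Pearson r = 0.11 with log2 span, Spearman rho = 0.14). Across all tested genes the values were 0.29 and 0.28. These coefficients are across genes of the same 4 libraries, which are not independent replicates.

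Genes that work with the pump were read from lists drawn up beside the members. Of 9 tested assembly factors and lysosomal TOR partners, 4 were higher, 1 lower and 4 not called (median 0.23). Without input 1 only 2 were higher, and with at least 50 counts in 2 libraries the median was -0.015. Mitf, the fly member of the MITF/TFEB transcription factors that are known to activate V-ATPase genes, had 866 and 1072 CPM in the IP and 135 and 117 CPM in the input (log2 2.95 ± 0.14 SE, edgeR adjusted p = 4.13e-12). mtd rose by 1.56 and RagA-B, a GTPase of amino acid sensing at the lysosome, by 0.40 on the log2 scale, while the growth kinase gene Tor was called at 0.23 (edgeR adjusted p = 0.0478). With the 3 other scalings 2 of these 9 were higher and 5 or 6 lower. Rbcn-3A, of the complex that assembles V1 on V0, showed 0.07 ± 0.11 SE, and ATP6AP2, an accessory protein of the pump, 0.14 ± 0.11 SE. Neither passed, and Rbcn-3B was at 0 in all libraries. CG31030, which RefSeq lists as VhaAC45RP, fell by 2.47 ± 0.36 SE (edgeR adjusted p = 9.63e-06), where VhaAC45 was higher in TMM scaling.

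Lysosomal protein genes, whose products work in the acid the pump makes, did not move one way. Of 20 tested, 5 were higher, 12 lower and 3 not called (median -0.88). The membrane and sterol transport genes Lamp1 (1.51), Npc1a (1.52) and Npc2a (1.44) rose, as did the chloride transporter gene ClC-c (0.75). The mannosidase genes LManII (-2.39) and LManI (-2.90) and the hexosaminidase genes Hexo1 (-2.17) and Hexo2 (-2.35) fell. With the 3 other scalings 3, 3 and 4 of the 20 were higher and 15, 16 and 14 lower. Among 18 tested ion exchange, carbonic anhydrase and water channel genes 7 were higher and 8 lower (median 0.14). That median was 0.0113 without input 2, 0.0425 without PABP IP 2 and -0.17 with at least 50 counts in 2 libraries. The sodium/proton exchanger gene Nhe2 rose by 1.95 ± 0.22 SE and the carbonic anhydrase gene CAH3 by 1.05 ± 0.10 SE, while Nha1 and CAH7 fell by 1.01 and 1.04. Scaled by library size alone, the 18 split into 2 higher and 13 lower.

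Other multi-subunit complexes gave a frame for these values. Of 40 tested proteasome genes 3 were higher and 28 lower (median -0.53), and of 15 tested genes of the mitochondrial ATP synthase, a related rotary enzyme, none was higher and 12 were lower (median -1.07). Against the all-gene median these stood at -0.43 and -0.97, where the broad and single V-ATPase genes stood at 0.39. Each offset moved by less than 0.01 with the 3 other scalings, which shift all genes alike and so cannot test it. With at least 50 counts in 2 libraries the offsets were -0.59 for the proteasome, -1.23 for the ATP synthase and 0.0461 for the V-ATPase genes. The proteasome and ATP synthase sets keep paralogues such as Prosbeta4R1 (-2.37) and ATPsynbetaL (-2.63), while the 15 V-ATPase genes leave the further paralogues out. All 24 tested Vha genes together had a median of -0.06, against -0.10 for all genes. No test of the difference between complexes was made.

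**Figure D4:**
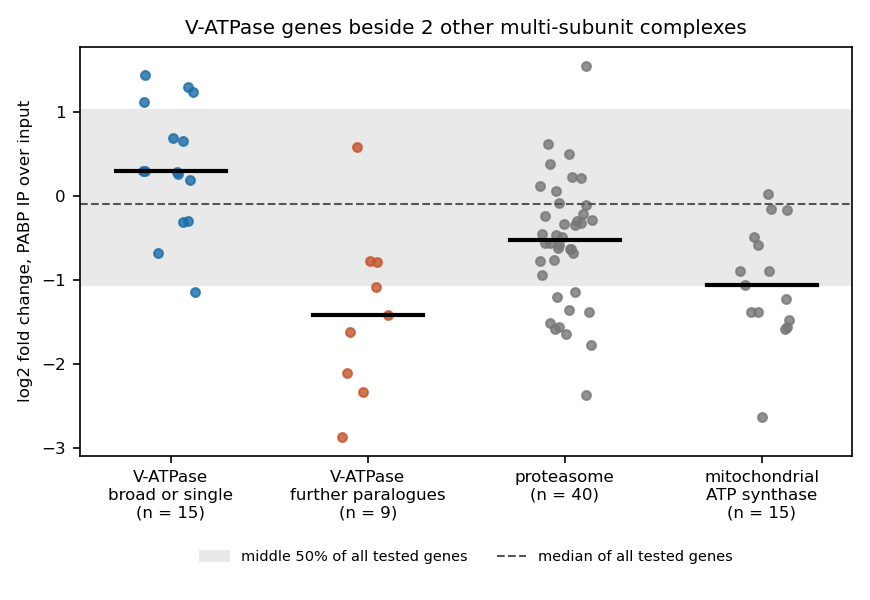
Log2 fold change of PABP IP over input (TMM scaling) for tested genes of the V-ATPase, split into broad or single genes and further paralogues, and of the proteasome and the mitochondrial ATP synthase, with 1 point per gene. Black bars mark class medians (0.29, -1.41, -0.53 and -1.07), the dashed line the median of all tested genes (-0.10) and the grey band their middle 50%.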

How the data were processed

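The authors deposited whole-number read counts per gene for 4 libraries, not normalized, with a gene length in bases per the file headers. For all 32 Vha genes this length equalled the gene span in the RefSeq table of assembly Release 6 plus ISO1 MT, used for names and overlaps only. Upstream software, per the submitters' processing notes, included Subread 2.0.0 (featureCounts), SAMtools 1.10, STAR 2.7.3a, cutadapt 2.9 and DESeq2. Genome build, strand setting and other options were not given in the sources used here. A row with no gene name (at most 0.000418% of a library) was dropped. A second table of the authors gives, per the file headers, p-values, log2 fold changes and a Wald score. It also gives, per library, the authors' normalized signal, which equals counts over 1 size factor. Its base mean exceeds the mean of its 4 library columns by over 1% for 8864 of 12247 genes, so the libraries behind its fit are not known.

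Testing used glmQLFit and glmQLFTest of edgeR 4.0.16 (R 4.3.3), two-sided, after filterByExpr (minimum count 10) and TMM scaling, with Benjamini-Hochberg adjustment at 0.05, and the steps were tested on simulated counts. CPM is counts over TMM library size. The SE of a log2 fold change was taken as its size divided by the root of the F statistic. Intervals of differences combine both SEs. Every Vha gene was accounted for and each tested one named. From each other list up to 4 called genes per direction with the lowest p were eligible, together with members set beside a Vha result, and the proteasome and ATP synthase genes were added for comparison, taken by symbol. ATP6AP2, Rbcn-3A and Rbcn-3B were named outside that rule, for their role and with values seen. Members and lists were chosen with earlier results of these data known. Of the list symbols, those with no match were not used here. Alternatives used DESeq2 1.42.0 and limma 3.58.1, other scalings and filters, a replicate block, and each library left out. Computations outside R used Python 3.11.15, pandas 2.3.3 and scipy 1.17.1.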

Additional observations from a re-analysis of the deposited data

How the results depend on the processing

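With TMM scaling 11 Vha genes were higher and 10 lower. The counts were 4 and 17 with upper-quartile factors, 4 and 18 with library size alone, 4 higher with the authors' factors, 7 and 6 with at least 50 counts in 2 libraries (18 Vha genes tested), 6 lower in DESeq2 and 3 and 4 against a log2 fold change of 1. Leaving out 1 library gave 8 to 9 higher and 6 to 9 lower, the lowest count of lower genes (6) without input 2. The counts of all genes moved to 2209 higher and 6347 lower with library size alone, and to 2145 and 1584 against a log2 fold change of 1. As shares of all tested genes, 39.4% were higher and 41.9% lower with at least 50 counts in 2 libraries. In DESeq2 27.7% were lower, and against a log2 fold change of 1 the shares were 21.5% and 15.9%.

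The V1 median (-0.02) became 0.0553 with RLE factors, 0.0555 in DESeq2, -0.63, -0.87 and -0.52 under upper-quartile, library-size and authors' scaling and -0.23 with no count filter, and ranged from -0.0346 to 0.0130 with 1 library left out. The V0 median (-0.78) became -1.39, -1.63 and -1.27 with those 3 scalings and -0.0774 with at least 50 counts, and ranged from -0.79 to 0.19 with 1 library left out. The median of broad copies (0.26) became -0.35, -0.59 and -0.24, and -0.0569 with at least 50 counts. That of further paralogues (-1.41) became -2.27 with library size alone, -2.65 with at least 50 counts and -1.04 with no count filter.

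Single genes changed sign as follows. Under the 3 scalings in the same order, and then with at least 50 counts, VhaPPA1-1 was at -0.32, -0.56, -0.20 and -0.0201, VhaAC39-1 at -0.43, -0.67, -0.32 and -0.13, Vha68-2 at -0.35, -0.59, -0.24 and -0.0569, Vha55 at -0.32, -0.56, -0.20 and -0.0219, and Vha14-1 at -0.33, -0.57, -0.22 and -0.0368. Vha100-1 was at -0.0271 and -0.27 with the first 2 of these, and VhaSFD at -0.16 and VhaAC45 at -0.20 with library size alone. The 3 scalings differ by construction in where they set 0. The filter at 50 counts also lowered all 18 Vha genes it tested by a like amount. For instance, Vha16-1 went from 1.30 to 0.98 and Vha100-2 from -1.14 to -1.46. TMM factors were recomputed on the genes this filter kept, which moves where 0 lies. The sign changes with that filter thus go with a shift of 0 as well, and why the factors changed was not tested.

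The block on the replicate number of the labels gave 8 higher and 10 lower Vha genes, without Vha14-1, Vha55 and Vha68-2. Of all tested genes, 36.6% were then higher and 38.2% lower. Differences between replicates of the IP and of the input correlated at -0.07 over the tested genes, so the numbers were not taken as pairs. Depth limits the rarest members most, where input counts stayed in single digits.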
